A study of Mus musculus with 21 samples.

Results

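Prdm1 and 8 genes that act with it or below it in B cells (Bcl6, Myc, Xbp1, Irf4, Pax5, Bach2, Ciita and Id3) were followed in the embryonic small intestine of mice with altered Prdm1. The members were all probes of the array whose platform gene symbol, current or older, is one of these 9 genes. That gave 12 of 45281 probes, for 9 of the 19057 genes named on the array. Expression was measured on Illumina WG6_V2 bead arrays, which read each transcript by the brightness of short probes carried on beads, at embryonic day E18.5. The labels give 10 libraries as Prdm1-/- and 11 as Prdm1+/+. The Prdm1-/- embryos had the Prdm1 alleles CA and BEH and a Villin-Cre transgene, whose promoter is active in the epithelium of the gut. The Prdm1+/+ embryos carried 1 CA allele beside a wild-type allele. All had mothers homozygous for CA that carried the R26R allele, and the strain is given as mixed. Since the labels name the transgene and the BEH allele for the mutants alone, an effect of Cre, of either Prdm1 allele, or of BEH outside the epithelium cannot be told apart. The labels give no litter, sex or array position.

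Prdm1 encodes Blimp1, a zinc finger repressor that drives the change of B cells into plasma cells. In that change Blimp1 shuts off Myc, Pax5, Ciita, Bcl6 and Id3, while Bcl6, Pax5 and Bach2 hold Prdm1 down in B cells, and Irf4 activates it. Xbp1, which builds up the secretory pathway, acts after Pax5 has been lost. In the gut of mice, Blimp1 is known from the epithelium before weaning, where it keeps the enterocyte programme in its neonatal state.

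Among the 9 genes, Prdm1 and Bcl6 differed with genotype by more than the spread between embryos, in opposite directions. The starts of their genes are shown here because the results turn on these genes and because Blimp1 and Bcl6 are described in B cells as repressors of each other. The windows are RefSeq promoters of mouse build GRCm38.p6, each of 300 bases, with 250 before the gene's start and 50 after it. They are written 5′ to 3′ on the gene's own strand, which is the minus strand for both genes. Capitals mark matches to 3 motifs searched on both strands: GTGAAAG, the core bound by Blimp1; TTCNNNGAA, the palindromic core bound by Stat factors and resembling the Bcl6 site; and CACGTG, the E-box bound by Myc with Max.
Prdm1, chr10:44458699-44458998: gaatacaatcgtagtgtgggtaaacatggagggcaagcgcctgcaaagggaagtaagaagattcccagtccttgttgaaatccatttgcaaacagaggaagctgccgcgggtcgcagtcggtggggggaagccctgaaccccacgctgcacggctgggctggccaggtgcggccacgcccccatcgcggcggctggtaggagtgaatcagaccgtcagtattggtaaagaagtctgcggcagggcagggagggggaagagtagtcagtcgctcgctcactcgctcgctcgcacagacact
Bcl6 first start, chr16:23988803-23989102: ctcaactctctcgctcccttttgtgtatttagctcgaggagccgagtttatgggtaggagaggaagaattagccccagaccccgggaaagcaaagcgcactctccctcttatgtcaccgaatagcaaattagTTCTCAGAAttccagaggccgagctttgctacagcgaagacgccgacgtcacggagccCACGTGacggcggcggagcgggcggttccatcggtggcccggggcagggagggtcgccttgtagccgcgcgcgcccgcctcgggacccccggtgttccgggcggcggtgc
Bcl6 second start, chr16:23981234-23981533: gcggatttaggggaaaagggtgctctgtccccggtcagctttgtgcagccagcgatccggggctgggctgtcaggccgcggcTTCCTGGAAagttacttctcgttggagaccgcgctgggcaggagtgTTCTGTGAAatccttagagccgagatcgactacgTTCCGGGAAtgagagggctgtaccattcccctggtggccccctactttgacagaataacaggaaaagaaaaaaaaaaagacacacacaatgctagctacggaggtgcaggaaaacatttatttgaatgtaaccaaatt

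The Prdm1 window held none of the 3 motifs. The first Bcl6 window held 1 TTCNNNGAA match, beginning 118 bases before the start, and 1 CACGTG match, 60 bases before it. The second Bcl6 window held 3 TTCNNNGAA matches, beginning 168, 122 and 88 bases before its start. Over all 32851 promoter windows of this length, 4.24% held GTGAAAG, 8.3% held TTCNNNGAA and 7.15% held CACGTG, and the motifs do not overlap each other in the windows shown. Of the 9 genes, 7 had a promoter in the table, in 8 windows, and GTGAAAG was in 0 of them. Bach2 was the other gene with a match, 1 TTCNNNGAA. A match is a run of letters and shows no binding.

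Between 14596 and 16085 probes were detected per array (detection p under 0.01 against the negative control beads), and the number of arrays limits the precision. A probe was tested where it was detected on at least 5 of the 21 arrays, which kept 16641 probes. Differences are log2 intensity, Prdm1-/- minus Prdm1+/+, ± SE from limma with n = 10 and n = 11. P-values were adjusted by Benjamini-Hochberg across these 16641 probes. Of these probes, 20.9% passed an adjusted p under 0.05, with 9.49% higher and 11.4% lower in the libraries labelled Prdm1-/-. The members had 4 tested probes, for Prdm1, Bcl6, Xbp1 and Id3, and 2 of them passed. The other 8 probes were not tested. Groups failed to overlap for 3.71% of tested probes.

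Some libraries stood apart from others. Once each genotype's mean was removed, with the members left out, the arrays fell into 2 clusters that crossed the genotypes. The first held 4 Prdm1-/- and 6 Prdm1+/+ arrays, and the second held 6 Prdm1-/- and 5 Prdm1+/+ arrays. The main axis of this residual variation carried 32.3% of it, and the labels name nothing that matches it. Separately, the colon markers Car1 and Hoxd10 were detected together in 6 of 10 Prdm1-/- libraries and in no Prdm1+/+ library. They were 2 of 4 tested colon markers. Hoxa13 was detected in 9 of 10 Prdm1-/- and 8 of 11 Prdm1+/+ libraries and did not pass (0.10, limma adjusted p = 0.435). Muc1 was detected in 4 Prdm1-/- and 7 Prdm1+/+ libraries and did not pass (-0.06, limma adjusted p = 0.709). Hoxd11, Hoxd12 and B3gnt7 were below detection on every array. Mutants with colon markers are below the 6 libraries with Car1 and Hoxd10 detected. Of these 6 libraries, 2 were in the first cluster and 4 in the second. Each tested member is therefore also given within clusters and without those 6 libraries.

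Prdm1 itself was read by a pair of probes. Probe ILMN_2597923 had a lowest, median and highest log2 intensity of 6.99, 7.97 and 8.78 in libraries labelled Prdm1-/-, against 4.33, 4.49 and 4.98 in libraries labelled Prdm1+/+. The groups lay far apart, with every Prdm1-/- library above every Prdm1+/+ library. In raw intensity the same probe read 144, 250 and 526 in Prdm1-/- libraries, against 54.5, 63.5 and 82 in Prdm1+/+ libraries. It was detected in all 10 Prdm1-/- libraries and in 0 of 11 Prdm1+/+ libraries, where its detection p ran between 0.0214 and 0.659. The Prdm1-/- mean was 7.99 ± 0.59 (SD, n = 10) and the Prdm1+/+ mean 4.55 ± 0.22 (SD, n = 11). The fitted difference was 3.44 ± 0.18 (95% interval 3.07 to 3.81, limma adjusted p = 1.64e-12). The two-sided permutation p was 1e-05, the smallest the draws can give. A rise of at least 1 log2 unit that passed was found for 0.937% of the probes tested. As the Prdm1+/+ signal was below detection, the signal is best given as at least 7.31-fold higher in libraries labelled Prdm1-/-. That bound sets the bright group's mean against the lowest detected signal of each array.

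**Figure D1:**
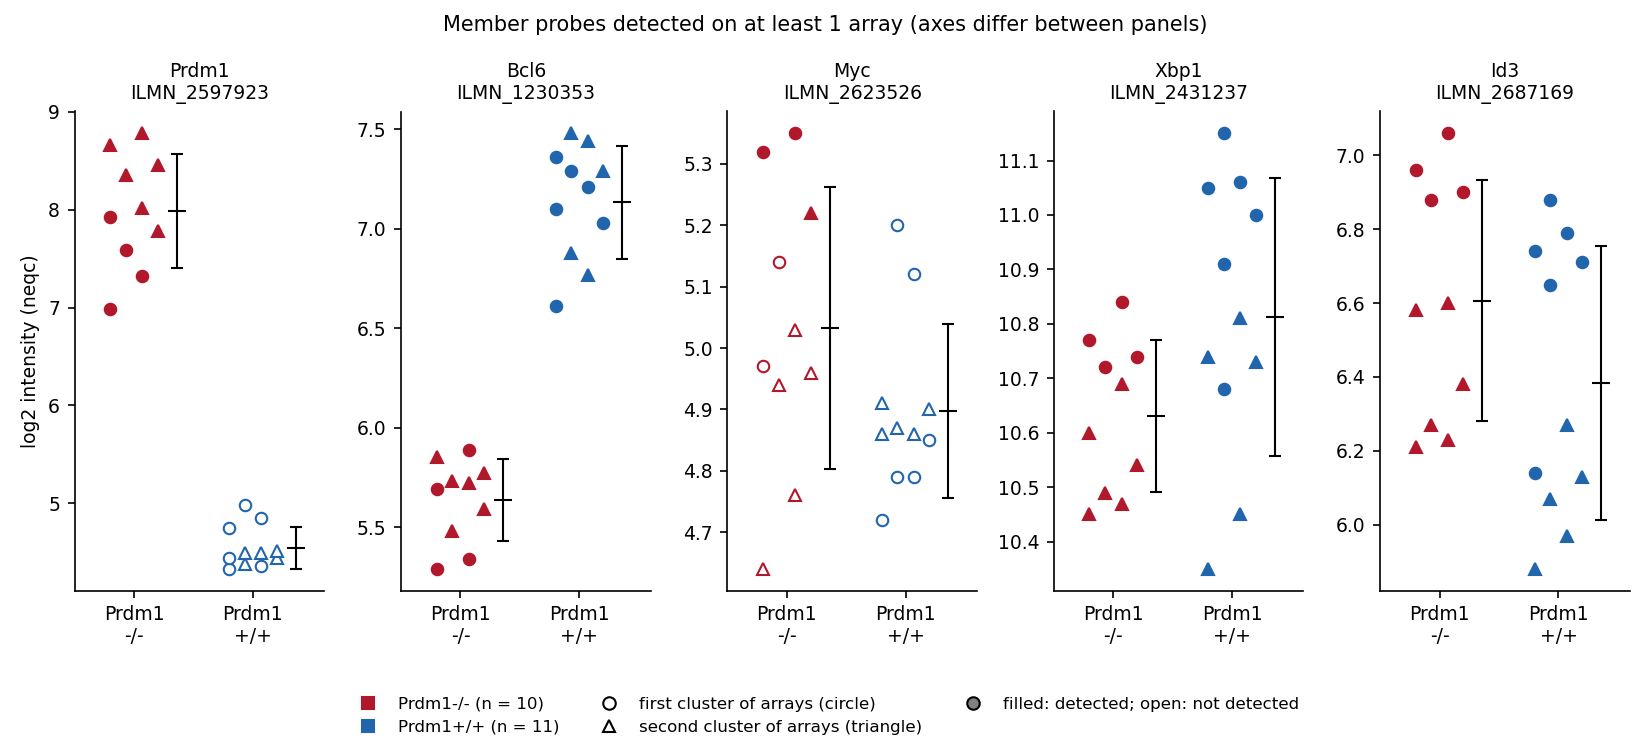
Log2 intensity of the 5 member probes detected on at least 1 array, a point per library, with Prdm1-/- libraries (n = 10, red) left of Prdm1+/+ libraries (n = 11, blue); bars are the mean and SD. Circles and triangles are the first and second cluster of arrays, filled points were detected, and the y axes differ. Prdm1 is high and Bcl6 low in every Prdm1-/- library, while Myc, Xbp1 and Id3 overlap between genotypes.

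The second Prdm1 probe, ILMN_2744650, was below detection on all 21 arrays. It read 4.25, 4.29 and 4.40 (lowest, median, highest) in Prdm1-/- libraries, against 4.28, 4.38 and 4.51 in Prdm1+/+ libraries. The groups overlapped, and as both lay below detection no direction is read from the difference of -0.09 (two-sided permutation p = 0.00211; limma adjusted p = 0.051 with no filter on dim probes). The position of these probes in the gene, and whether the CA or BEH allele changes it, was not analysed here. The probes therefore do not check the deletion. What the higher signal of the detected probe means for the Prdm1 transcript was not tested. Every direction given here rests on the labels.

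The Prdm1 signal also varied among the mutants. In the second cluster it averaged 8.34 ± 0.38 in Prdm1-/- libraries (SD, n = 6) and 4.46 ± 0.05 in Prdm1+/+ libraries (SD, n = 5), at least 9.85-fold higher in Prdm1-/- (limma adjusted p = 1.13e-08). In the first cluster it averaged 7.46 ± 0.40 in Prdm1-/- libraries (SD, n = 4) and 4.62 ± 0.28 in Prdm1+/+ libraries (SD, n = 6), at least 4.85-fold higher in Prdm1-/- (limma adjusted p = 6.02e-06). The Prdm1+/+ arrays of both clusters were below detection. Every mutant of the second cluster lay at or above 7.78 and every mutant of the first at or below 7.92, so the ranges overlapped only between these values. The gap between the clusters' mutants was 0.89 after quantile normalisation, 1.01 after median scaling, 0.95 in the deposited processed values and 0.75 without background correction, and whether it exceeds the spread was not tested. Prdm1 read 7.32 to 8.78 in the 6 mutants with colon markers and 6.99 to 8.66 in the 4 without, and without those 6 libraries the fitted difference was 3.29 (limma adjusted p = 2.62e-08). Without background correction, where background light stays in the signal, the fitted Prdm1 difference was 2.24. Fitted differences of this probe are set against Prdm1+/+ arrays below detection.

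Bcl6 encodes a zinc finger repressor that holds germinal centre B cells back from becoming plasma cells. Its probe read a lowest, median and highest log2 intensity of 5.29, 5.71 and 5.89 in Prdm1-/- libraries, against 6.61, 7.21 and 7.48 in Prdm1+/+ libraries. No value was shared between the groups, every Prdm1-/- library lying below every Prdm1+/+ library, as held for 2.11% of tested probes in that direction. The raw intensity was 75.5, 90.9 and 106 in Prdm1-/- libraries, against 150, 199 and 244 in Prdm1+/+ libraries, and the probe was detected on all arrays of both genotypes. The means were 5.64 ± 0.21 (SD, n = 10) in Prdm1-/- and 7.13 ± 0.28 (SD, n = 11) in Prdm1+/+ libraries. Bcl6 was thus 2.82-fold lower in Prdm1-/- libraries (-1.50 ± 0.11, 95% interval -1.72 to -1.28, limma adjusted p = 2.66e-10), with a two-sided permutation p of 1e-05. A fall of at least 1 log2 unit that passed the test was found for 0.877% of the probes tested. In whole tissue, fewer cells of a type and less RNA per cell cannot be told apart.

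The Bcl6 difference hardly moved with the clusters, at -1.55 ± 0.16 in the first (limma adjusted p = 8.84e-05) and -1.48 ± 0.14 in the second (limma adjusted p = 1.32e-05). Without the 6 mutants with colon markers it was -1.38 (limma adjusted p = 5.64e-06). It was -0.98 without background correction and -1.84 in the deposited processed values. Markers of other cell types and tissues differed between the same libraries, where 12.6% of all genes tested were lower. Of 7 tested macrophage and dendritic cell markers 3 fell, 1 rose and 3 did not pass, while Itgax and Flt3 were below detection on every array. Csf1r, the receptor that macrophages need, was at -1.48 ± 0.10 (limma adjusted p = 2.37e-10), and Mrc1, a mannose receptor of macrophages, rose by 0.30 (limma adjusted p = 0.04). The summed linear signal of these markers was 1210 to 1610 in Prdm1-/- libraries and 1960 to 2250 in Prdm1+/+ libraries. Without Csf1r the sums overlapped, at 1030 to 1390 in Prdm1-/- and 1170 to 1530 in Prdm1+/+ libraries.

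Of 7 tested liver markers 4 fell, and the probes for Alb, Fgb and Apoh were below detection everywhere. Their summed signal was 825 to 1460 in Prdm1-/- and 2540 to 6830 in Prdm1+/+ libraries. Without Ttr and Trf it was 295 to 565 in Prdm1-/- and 553 to 1980 in Prdm1+/+ libraries, so the groups overlapped slightly. Of 4 tested stomach markers 1 fell, gastric lipase Lipf (-2.18, limma adjusted p = 6.15e-11, detected in 1 of 10 Prdm1-/- and 11 of 11 Prdm1+/+ libraries). Of 10 tested pancreas markers 1 fell, the elastase Cela1 (-1.31, limma adjusted p = 0.00281). Of 11 tested epithelial markers 4 rose, Krt20 by 1.47, Krt19 by 0.92, Vil1 by 0.64 and Krt8 by 0.46, and Krt18 fell by 0.66. Their part in the Bcl6 result was not tested.

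Xbp1 encodes the transcription factor that expands the endoplasmic reticulum in secretory cells, goblet and Paneth cells of the gut included. It read 10.45, 10.65 and 10.84 (lowest, median, highest log2 intensity) in Prdm1-/- libraries, against 10.35, 10.81 and 11.15 in Prdm1+/+ libraries. The Prdm1-/- range lay inside the Prdm1+/+ range. The means were 10.63 ± 0.14 (SD, n = 10) in Prdm1-/- and 10.81 ± 0.25 (SD, n = 11) in Prdm1+/+ libraries, a difference of -0.18 ± 0.09 that did not pass (95% interval -0.37 to 0.01, limma adjusted p = 0.181; two-sided permutation p = 0.0639). With arrays weighted by their quality it did pass, at -0.25 (limma adjusted p = 0.0314). Within the first cluster the difference was -0.21 ± 0.09 (limma adjusted p = 0.175) and within the second -0.07 ± 0.10 (limma adjusted p = 0.729). It was -0.10 without the 6 mutants with colon markers (limma adjusted p = 0.753). The second cluster minus the first was -0.23 log2 for Xbp1 in Prdm1-/- and -0.36 in Prdm1+/+ libraries.

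Id3 encodes an inhibitor of E proteins, the basic helix-loop-helix factors of early lymphocytes. Its log2 intensity was 6.21, 6.59 and 7.06 (lowest, median, highest) in Prdm1-/- libraries, against 5.88, 6.27 and 6.88 in Prdm1+/+ libraries. The groups overlapped over most of their range. The means were 6.61 ± 0.33 (SD, n = 10) and 6.38 ± 0.37 (SD, n = 11) for Prdm1-/- and Prdm1+/+ libraries, and the difference of 0.22 ± 0.15 did not pass (95% interval -0.08 to 0.53, limma adjusted p = 0.318; two-sided permutation p = 0.159). The clusters split Id3 within each genotype, with second minus first at -0.58 in Prdm1-/- and -0.59 in Prdm1+/+ libraries. With the cluster as a term in the fit, a choice made after these values were seen, the difference was 0.31 ± 0.08 and passed (limma adjusted p = 0.00614). Within the first cluster it was 0.30 ± 0.13 (limma adjusted p = 0.157) and within the second 0.32 ± 0.10 (limma adjusted p = 0.0738), neither of which passed. It was 0.33 without the 6 mutants with colon markers (limma adjusted p = 0.361).

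**Figure D2:**
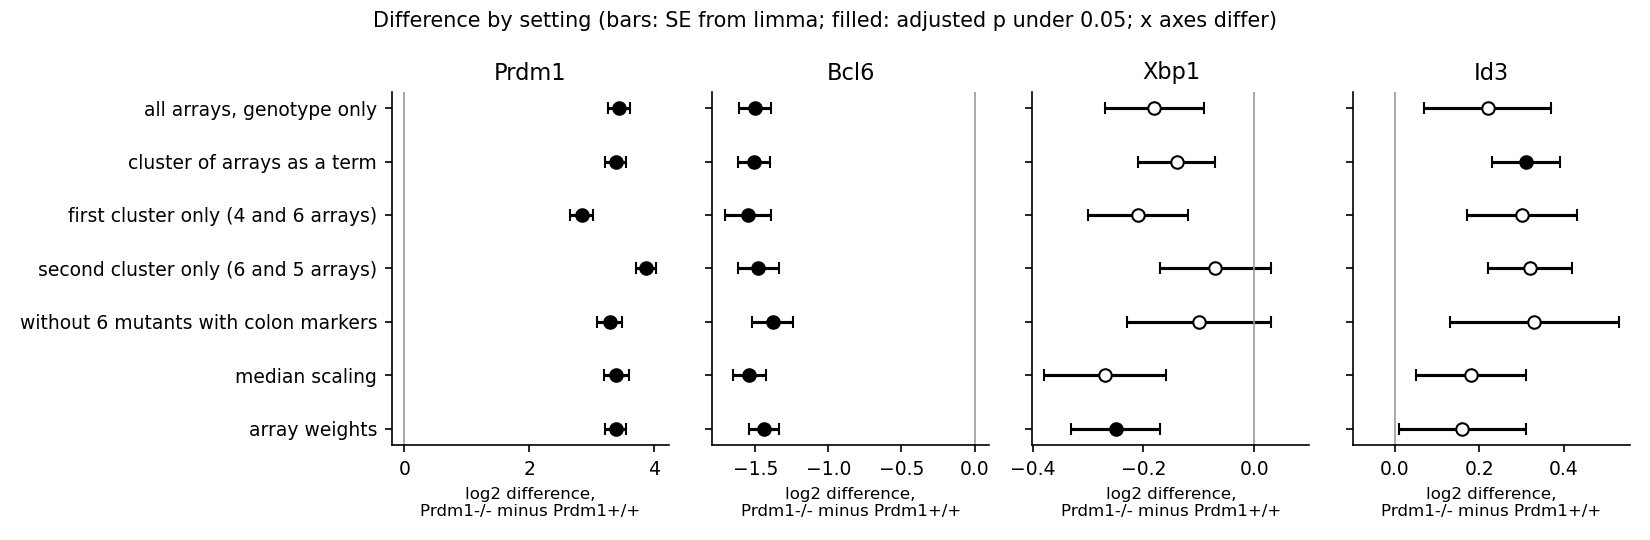
Log2 difference, Prdm1-/- minus Prdm1+/+, of the 4 tested members under 7 settings; bars are the SE from limma, filled points have an adjusted p under 0.05, and the x axes differ. Prdm1 stays positive and Bcl6 negative past the threshold in each setting drawn, while Xbp1 passes only with array weights and Id3 only with the cluster as a term among the settings drawn. For Prdm1 the Prdm1+/+ arrays were below detection.

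Myc, the growth regulator that Blimp1 represses in plasma cells, was close to the background. Probe ILMN_2623526 was detected in 3 of 10 Prdm1-/- libraries and in 0 of 11 Prdm1+/+ libraries. It read 4.64, 5.00 and 5.35 (lowest, median, highest log2 intensity) in Prdm1-/- libraries, against 4.72, 4.86 and 5.20 in Prdm1+/+ libraries. The groups overlapped, and the Prdm1+/+ range lay inside that of the mutants. The lowest signal that counted as detected was 4.99 to 5.24 depending on the array. The difference was 0.13 (two-sided permutation p = 0.121; limma adjusted p = 0.469 with no filter), which was not detectable at this signal. The other Myc probe, ILMN_1231123, was below detection on all 21 arrays, at 4.19 to 4.31 in Prdm1-/- and 4.18 to 4.45 in Prdm1+/+ libraries.

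The remaining 4 genes gave no detected signal on any of the 21 arrays. Irf4, the interferon regulatory factor that activates Prdm1 in B cells, read 4.21 to 4.50 in Prdm1-/- and 4.28 to 4.52 in Prdm1+/+ libraries. Pax5, which fixes B cell identity, read 4.23 to 4.53 in Prdm1-/- and 4.21 to 4.37 in Prdm1+/+ libraries. Bach2, a repressor of Prdm1 in B cells, read 4.24 to 4.44 in Prdm1-/- and 4.21 to 4.40 in Prdm1+/+ libraries. These ranges overlapped throughout and lay below the lowest detected signal.

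Ciita, the coactivator that switches on MHC class II genes, had a pair of probes, both below detection on every array. Probe ILMN_2568407 read 4.25 to 4.45 in Prdm1-/- and 4.24 to 4.38 in Prdm1+/+ libraries. Probe ILMN_2678211 read 4.27 to 4.50 in Prdm1-/- and 4.33 to 4.88 in Prdm1+/+ libraries, where its detection p went down to 0.031. The Prdm1+/+ median of 4.51 thus lay just above the highest mutant, yet the groups overlapped and no library was detected (difference -0.18, two-sided permutation p = 0.0164; limma adjusted p = 0.132 with no filter). An undetected probe bounds only what that probe can read: the probes for Epcam, Fabp1 and Fabp2, transcripts that gut epithelium makes in quantity, were also below detection on every array. Of the 14 epithelial markers the other 11 were tested, and all 11 were detected on every array.

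**Figure D3:**
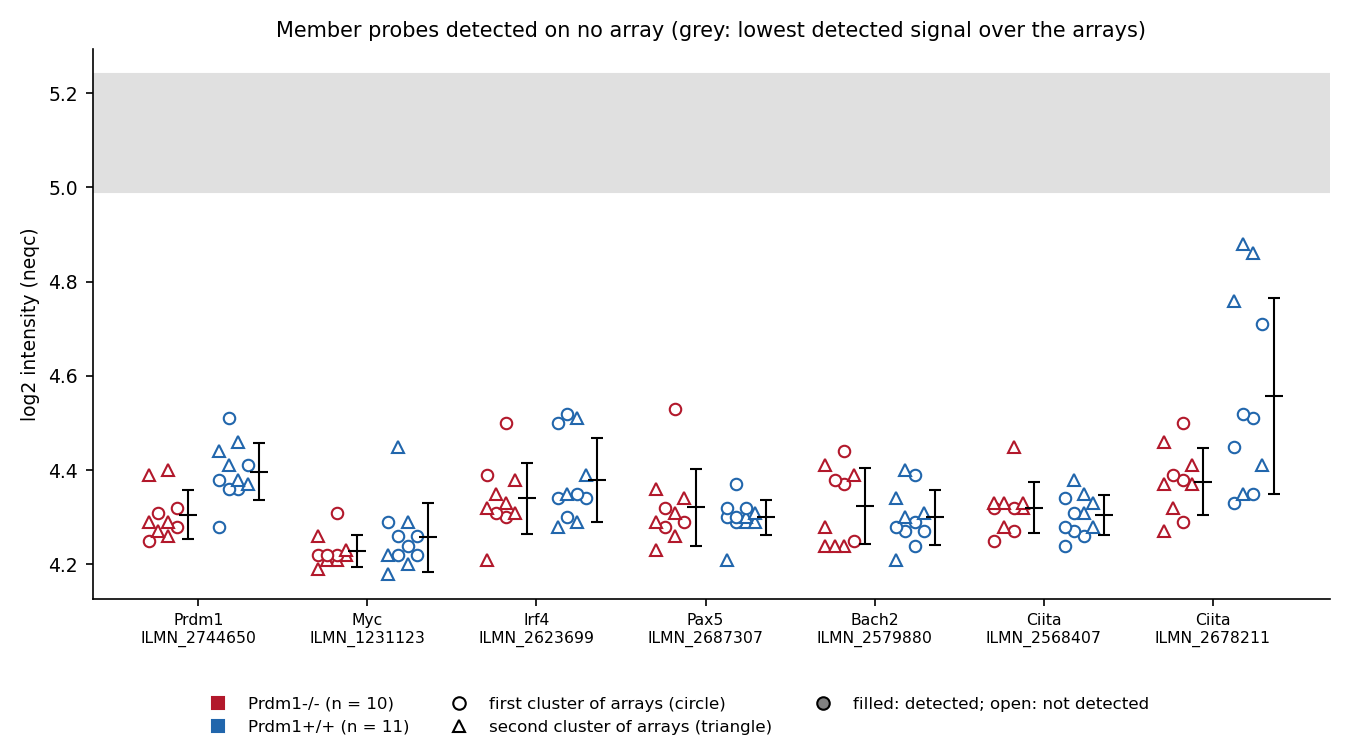
Log2 intensity of the 7 member probes detected on no array, a point per library, with Prdm1-/- libraries (n = 10, red) left of Prdm1+/+ libraries (n = 11, blue) for each probe; bars are the mean and SD, and the grey band spans the lowest detected signal over the arrays, 4.99 to 5.24. Every point lies under the band, and the probe ILMN_2678211 for Ciita comes nearest to it, at 4.88 in a Prdm1+/+ library.

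The genes around each member were then counted, each gene taken as its brightest tested probe. Among all 9961 genes tested 23.2% passed, with 10.6% higher and 12.6% lower in Prdm1-/- libraries, and the median difference was 0.01. Of 5 tested genes of the Prdm family 0 rose and 3 fell, with a median of -0.20. They were Prdm15 (-0.78, limma adjusted p = 0.00213), Prdm16, a regulator of brown fat and stem cells (-0.45, limma adjusted p = 0.00708), and Prdm4 (-0.20, limma adjusted p = 0.00593). The second tested probe of Prdm4 was at -0.27 and did not pass (limma adjusted p = 0.0535). Without the 6 mutants with colon markers 0 of the 5 passed in limma, and 2 had an unadjusted p under 0.05. The differences with those 4 mutants were -0.78 for Prdm15 (limma adjusted p = 0.0506), -0.28 for Prdm16 (limma adjusted p = 0.26) and -0.17 for Prdm4 (limma adjusted p = 0.169). Mecom and Prdm2 gave -0.18 and -0.08 and did not pass.

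The corepressors moved little. Of 12 tested genes for proteins that Blimp1 recruits, such as histone deacetylases and Groucho proteins, 0 rose and 1 fell, which was Tle4, a Groucho protein (-0.24, limma adjusted p = 0.025). That call was lost without Prdm1-/- replicate 7 (-0.21, limma adjusted p = 0.0524). The second tested probe of Tle4 was at -0.42 and did not pass (limma adjusted p = 0.0959). Of 6 tested corepressors of Bcl6 1 rose and 0 fell. It was Mta3, the NuRD subunit that works with Bcl6 in germinal centres (0.26, limma adjusted p = 0.00895), and its second probe also rose (0.45, limma adjusted p = 0.00109). With median scaling 0 genes of either list passed in limma, with an unadjusted p under 0.05 for 2 of the 12 and 1 of the 6. Tle4 was then at -0.33 (limma adjusted p = 0.0523) and Mta3 at 0.19 (limma adjusted p = 0.181).

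In the Myc network 2 of 8 tested partners rose and 0 fell. Mycl, a member of the Myc family, rose by 0.59 (limma adjusted p = 3.88e-05), and Mxd1, a partner of Max that opposes Myc, rose by 1.03 (limma adjusted p = 0.0266). Mxd1 lost its call without Prdm1-/- replicate 8 (0.93, limma adjusted p = 0.0504) and without the 6 mutants with colon markers (1.28, limma adjusted p = 0.102). Within the first cluster Mxd1 was at 0.63 (limma adjusted p = 0.488) and within the second at 1.40 (limma adjusted p = 0.0208). Its Prdm1+/+ libraries spread widely, at 5.01, 5.36 and 7.67 (lowest, median, highest). Of 16 tested Myc target genes 2 rose and 1 fell, with a median of 0.05. Ccnd2, a D-type cyclin, was at 0.31 (limma adjusted p = 0.0291), the nucleolar gene Npm1 at 0.20 (limma adjusted p = 0.0192) and the cyclin-dependent kinase gene Cdk4 at -0.20 (limma adjusted p = 0.0434). The further tested probes of Ccnd2, at 0.26 and 0.21, did not pass (limma adjusted p = 0.0564 and 0.574). Nor did the second tested probe of Cdk4 (-0.13, limma adjusted p = 0.264). Ccnd2 lost its call without any of 3 libraries (0.26 without Prdm1+/+ replicate 9, 0.27 and 0.29 without Prdm1-/- replicates 6 and 9), and Cdk4 without any of 11 libraries. Within the first cluster Ccnd2 was at 0.54 (limma adjusted p = 0.0315) and within the second at 0.09 (limma adjusted p = 0.694). With median scaling 0 of the 16 passed in limma, and 1 had an unadjusted p under 0.05. Ccnd2, Npm1 and Cdk4 were then at 0.22, 0.12 and -0.28. Without the 6 mutants with colon markers 0 passed and 2 did unadjusted, with Ccnd2, Npm1 and Cdk4 at 0.24, 0.14 and -0.24.

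The list of Xbp1 targets held mostly genes of folding, quality control and transport in the endoplasmic reticulum. It also held Ern1 and Ern2, sensors that act upstream of Xbp1 and are not its targets in this sense. The listed genes fell more often than they rose. Of 24 tested, 11 fell, 1 rose and 12 did not pass, with a median of -0.23. The gene that rose was Ern1 (0.38, limma adjusted p = 0.0215), and Ern2 did not pass (0.13, limma adjusted p = 0.65). Sdf2l1, a chaperone cofactor, fell by 0.69 (limma adjusted p = 0.00193). Sel1l, the adaptor of the degradation ligase, was at 7.99 ± 0.11 in Prdm1-/- (SD, n = 10) and 8.49 ± 0.15 in Prdm1+/+ libraries (SD, n = 11), a difference of -0.49 (limma adjusted p = 2.59e-06). The disulphide isomerase gene Pdia6 fell by 0.48 (limma adjusted p = 0.00191). Without the 6 mutants with colon markers 3 of the 24 fell and 1 rose, with 4 Prdm1-/- libraries left, and Sdf2l1 (-0.56) and Pdia6 (-0.40) no longer passed (limma adjusted p = 0.122 and 0.0935). Acinar cells of the pancreas are rich in such transcripts, and the summed signal of 11 pancreas markers was 412 to 59900 in Prdm1-/- and 1040 to 31200 in Prdm1+/+ libraries, with a median difference of -0.57 over the 10 tested. The part of the colon marker libraries and of pancreas in the result was not tested.

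Of 9 tested genes of the Irf family and of partners of Irf4, 1 rose and 1 fell. Irf7, a driver of type I interferon, rose by 0.73 (limma adjusted p = 0.00842), and without the mutants with colon markers it was at 0.74 and did not pass (limma adjusted p = 0.111). Irf1 fell by 0.45 (limma adjusted p = 0.000509), and its further tested probes gave -0.51, -0.58 and -0.31, of which the last did not pass (limma adjusted p = 0.0828). Spi1 and Batf were below detection on every array.

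Of 9 tested genes that Ciita controls or works with 0 rose and 2 fell, with a median of -0.21. Cd74, the invariant chain of MHC class II, was at -0.37 (limma adjusted p = 0.0407), and H2-DMb2, a peptide loading chain, at -0.32 (limma adjusted p = 0.0485). Further tested probes of Cd74 were at -0.34, which did not pass (limma adjusted p = 0.083), and at -0.32, which passed (limma adjusted p = 0.00952). Cd74 lost its call without any of 13 libraries and H2-DMb2 without any of 15. In those fits Cd74 was between -0.38 and -0.30, and H2-DMb2 between -0.33 and -0.27. Within the first cluster Cd74 was at -0.18 (limma adjusted p = 0.42) and H2-DMb2 at -0.04 (limma adjusted p = 0.81), and within the second they were at -0.47 (limma adjusted p = 0.119) and -0.48 (limma adjusted p = 0.046). Without the 6 mutants with colon markers 0 of the 9 passed in limma, and 2 had an unadjusted p under 0.05, with Cd74 at -0.34 and H2-DMb2 at -0.32.

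Bach2 partners and targets moved both ways. Of 8 tested 2 rose and 4 fell, with a median of -0.32. Bach1, the relative of Bach2 that represses haem-responsive genes, was 7.86 ± 0.26 in Prdm1-/- (SD, n = 10) and 8.70 ± 0.22 in Prdm1+/+ libraries (SD, n = 11), with no overlap (-0.84, limma adjusted p = 1.27e-06). Hmox1, the haem oxygenase that Bach1 represses, fell by 0.87 (limma adjusted p = 0.0278), and this call was lost without Prdm1+/+ replicate 9 (-0.79, limma adjusted p = 0.0513) or Prdm1-/- replicate 10 (-0.73, limma adjusted p = 0.0531). Nqo1, a quinone reductase of the oxidative response, rose by 0.57 (limma adjusted p = 0.000118). Of 5 tested Id and E protein genes, Id1, Id2, Id4, Tcf4 and Tcf12, 0 passed in the limma fit and 1 had an unadjusted p under 0.05, with differences between -0.17 and 0.21.

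**Figure D4:**
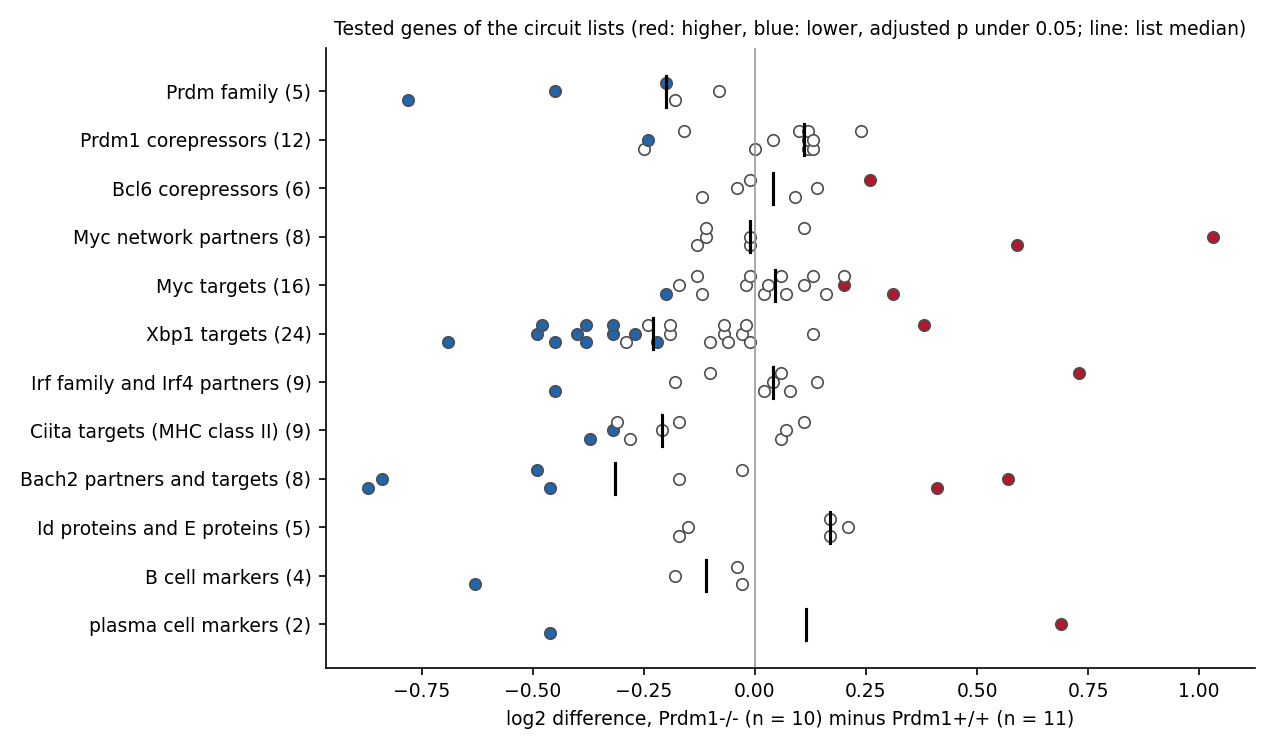
Log2 difference, Prdm1-/- (n = 10) minus Prdm1+/+ (n = 11), of each tested gene in the 12 lists around the members, with the number tested in brackets; red and blue points rose and fell with an adjusted p under 0.05, open points did not pass, and the black line is the list's median. The list of Xbp1 targets, Ern1 and Ern2 included, leans to the left with 11 of 24 lower, while the corepressor and Myc target points lie mostly between -0.25 and 0.25.

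The cells in which this circuit is known were hardly visible on the arrays. Of 13 B cell markers with a probe 8 were below detection on every array, Ms4a1 and Cd22 among them, and 4 were tested. The linear signal summed over all 13, undetected ones included, was 340 to 389 in Prdm1-/- and 386 to 454 in Prdm1+/+ libraries. A sum without Blnk, the gene of the 4 that passed, was not computed, so no change in B cells is read from it. Blnk, an adaptor of the B cell receptor that myeloid cells also express, was 6.06 ± 0.15 in Prdm1-/- (SD, n = 10) and 6.69 ± 0.18 in Prdm1+/+ libraries (SD, n = 11), without overlap (-0.63, limma adjusted p = 9.29e-07). Its second probe also fell (-0.55, limma adjusted p = 9.77e-05). Vpreb1, Cd79b and Ebf1 gave -0.18, -0.04 and -0.03 and did not pass.

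Of 8 plasma cell markers with a probe 6 were below detection on every array, including Jchain, Tnfrsf17 and Mzb1, and 2 were tested. The linear signal summed over all 8, undetected ones included, was 577 to 989 in Prdm1-/- and 652 to 1130 in Prdm1+/+ libraries. Sdc1, a plasma cell marker that epithelium also makes, was 6.29 ± 0.18 in Prdm1-/- (SD, n = 10) and 5.61 ± 0.20 in Prdm1+/+ libraries (SD, n = 11), again without overlap (0.69, limma adjusted p = 1.43e-06). Its second probe also rose (0.58, limma adjusted p = 0.00039). The epithelial markers Krt20, Krt19, Vil1 and Krt8 were higher in the same libraries, 4 of 11 tested, while Krt18 fell by 0.66 and 6 did not pass. The part of epithelial markers in the Sdc1 result was not tested. Fkbp11, a secretory pathway isomerase, fell by 0.46 (limma adjusted p = 0.0168), and without the mutants with colon markers it was at -0.31 (limma adjusted p = 0.341). With means of 8.94 in Prdm1-/- and 9.40 in Prdm1+/+ libraries it was brighter than Sdc1 and weighed more in the summed signal. No change in plasma cells is read from that sum. The part of these cells in the members' results was not tested.

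Whether Prdm1 tracked the other members among mutants was asked within the second cluster, which held 6 Prdm1-/- arrays, because a pooled correlation would join separate clusters. The plan had been to use all Prdm1-/- arrays, and this narrowing was made after the clusters were seen. Over 3 pairs, Pearson's r with Prdm1 was -0.86 for Id3 (two-sided exact permutation p = 0.0389, adjusted over the 3 pairs 0.117). Spearman's rho for Id3 was -0.60 (exact permutation p = 0.242), and r was -0.21 without the 2 arrays farthest from the Prdm1 median. Leaving arrays out of these 6 also narrows the Prdm1 range, so the drop cannot show that the relation rests on those arrays. For Bcl6 r was -0.48 (exact permutation p = 0.326, adjusted 0.49) with rho -0.37 (exact permutation p = 0.497), and r was 0.31 without those 2 arrays. For Xbp1 r was -0.04 (exact permutation p = 0.943, adjusted 0.943) with rho -0.26 (exact permutation p = 0.658), and r was 0.01 without those 2 arrays. No pair passed, and with 6 arrays the smallest p is 0.00278.

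The genes most like each member across arrays are given as a description. Over the 10 Prdm1-/- arrays, which share the cluster structure, those nearest to Prdm1 were Zfp157 (r = 0.97), 6030458C11Rik (0.97), Lcor (0.96), Tmcc1 (0.96) and Dock4 (0.96). None of these 5 passed the genotype test, with differences of 0.05 to 0.18. After removal of the genotype means over 21 arrays, Bcl6 was nearest to Gstm6 (r = 0.88), Lamc3 (0.75) and Tlcd4 (0.75). Xbp1 was nearest to Alg8 (0.91), Plpp6 (0.88) and Mrpl53 (0.86), and Id3 to Ccdc59 (0.92), Spsb2 (0.91) and Sco1 (0.91). Tlcd4, Ccdc59 and Spsb2 fell with the mutant genotype by 0.83, 0.50 and 0.74 (limma adjusted p = 7.71e-06, 0.000157 and 4.31e-06).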

How the data were processed

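RNA of 10 Prdm1-/- and 11 Prdm1+/+ libraries, grouped by the labels' titles, was read on 1 array each. The labels call them biological replicates. The deposited table of raw intensity has no background subtraction, and its detection p-value, in steps of 1 in 936, comes from the authors' GenomeStudio 2009.2 per the submitters' processing notes. The authors also deposited processed intensity on a linear scale; no source used here names its normalisation.

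In R 4.3.3, neqc of limma 3.58.1 was applied to the raw values: normexp background from the detection p-values, an offset of 16, quantile normalisation and log2. The offset draws differences of dim probes towards 0. Probes with detection p under 0.01 on at least 5 arrays (16641 of 45281) were fitted with lmFit and eBayes, genotype being the only term. Raw medians per array were 56.6 to 79.7, and arrays correlated at 0.971 to 0.993, so no 2 arrays were identical. The platform annotation named 34885 probes by 1 symbol, gave several for 18 and none for 10378, and 34807 symbols were matched by gene number. The fit was also run on simulated data. Their noise was independent between probes and arrays and held no clusters, so that run does not bear on the clusters seen here. Permutation tests used 100000 draws.

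The members and lists were chosen with earlier results of these data known. Named were all members, up to 3 changed genes per list with the largest difference, and the genes most like each member; list counts are of tested genes only. Csf1r, Mrc1, Ttr, Trf, Lipf, Cela1, the keratins, Vil1, Mecom, Prdm2, Vpreb1, Cd79b and Ebf1 were named outside that rule after their values were seen, as were the undetected markers. The same holds for the colon markers Hoxa13 and Muc1 and for Ern1 and Ern2. Alternatives concerned background, offset, scaling, processed values, dim-probe filters, replicate block, array weights, moderation and each array left out; those on clusters and colon markers were added after seeing the data. Whether replicate numbers pair the libraries could not be decided.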

Additional observations from a re-analysis of the deposited data

Results flagged for a closer look

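Among the 12 member probes, 2 had a Prdm1-/- library standing apart from the other 9 of its group, where chance gives this for about 1 group in 20. The Pax5 probe read 4.53 in Prdm1-/- replicate 6, with the nearest library at 4.36, and its detection p there was 0.208. The Ciita probe ILMN_2568407 read 4.45 in Prdm1-/- replicate 9, with the nearest library at 4.33 and a detection p of 0.292. Both values lay below detection.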

How the results depend on the processing

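Prdm1 and Bcl6 kept their direction and passed in all 13 alternatives and with each of the 21 arrays left out in turn, with differences of 2.24 to 3.88 and of -1.84 to -0.98 over the alternatives. The number of member probes that passed was 2 or 3. Over the array 3485 probes passed, against 1881 in the fit without the mutants with colon markers, 2102 within the first cluster and 1832 within the second, where fewer arrays were fitted. More passed with array weights, 3890, and with the cluster as a term, 4356, the clusters being drawn from residuals of these same arrays. How many were shared was not counted. Leaving out an array gave 3161 to 3536. Median scaling left 729 higher and 1906 lower probes, against 1580 and 1905, so the higher share was 27.7% and not 45.3%. The correlations with Prdm1 in the second cluster turned under median scaling, to 0.47 for Bcl6, 0.51 for Xbp1 and 0 for Id3 (exact permutation, adjusted p = 0.554, 0.554 and 0.997), and the cause was not tested. Of the 23 genes named from the lists 6 passed in every alternative (Mycl, Sel1l, Bach1, Nqo1, Blnk and Sdc1), and 0 changed direction.

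Residual correlations of same-numbered libraries were -0.25 to 0.30, 6 of 10 were over 0.1, and 0 libraries correlated best with their own number. Those 6 pairs each lay within a cluster, and the other pairs crossed the clusters with negative values. The correlations thus follow the clusters and cannot decide whether the numbers pair the libraries. With the replicate number as a block, 3080 probes passed, and Prdm1, Bcl6, Xbp1 and Id3 differed by 3.43, -1.47, -0.19 and 0.19. Of the genes named from the lists, Tle4 (-0.22), Mta3 (0.26), Mxd1 (0.98), Ccnd2 (0.32), Cdk4 (-0.19), Npm1 (0.20), Cd74 (-0.40) and H2-DMb2 (-0.36) did not pass with that block, at differences close to those without it. The signal over background limits the values of Irf4, Pax5, Bach2, Ciita, 1 Myc probe and the second Prdm1 probe, which were below detection on every array, and of the other Myc probe, detected on 3.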
